A study of Mus musculus with 6 samples.

Results

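Spp1, Clu, Lcn2, Wfdc2 and Icam1 are 5 genes known for being switched on in injured kidney tubules, and they were followed here through the cell types of the mouse kidney after a week of furosemide. They are 5 of the 456 genes of a panel counted in single cells. They were chosen by name, from a known group of injury genes, with earlier results of these data known. Wild-type C57BL/6J mice (C57BL/6 in the strain label) aged 16 weeks were given furosemide at 70 mg/kg body weight or vehicle for 1 week, both in a gel diet with a steady 104 µmol of sodium per kcal. Furosemide is a loop diuretic that blocks Slc12a1, the protein through which the thick ascending limb takes up salt. The data hold 3 vehicle libraries (numbered 1, 3 and 5) and 3 furosemide libraries (2, 4 and 6), with 11077 cells per treatment in 15 cell classes named by the authors. No label says that libraries of a group came from separate animals, so p-values measure the spread between these libraries, which may be technical.

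Tubule cells that are stressed or lose their neighbours change what they secrete and display, and these genes are among the best known examples. Spp1 encodes osteopontin, a secreted phosphoprotein that binds integrins and CD44, slows crystal growth in urine and is made by distal tubule segments also in healthy kidney. Clu encodes clusterin, a secreted chaperone that holds unfolded proteins in solution. Lcn2 encodes lipocalin 2 (NGAL), which binds iron-carrying siderophores, is taken up by the proximal tubule through megalin and is a urinary marker of acute kidney injury. Wfdc2 encodes HE4, a secreted protein with domains of the kind found in protease inhibitors. Icam1 encodes an adhesion molecule of the cell surface that binds integrins of leukocytes and is induced by inflammatory signals.

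The promoters of the members are shown as the sequence before the start of the gene, because members that share a name as injury genes could share short motifs there. RefSeq, on build GRCm38.p6, lists starts for Spp1, Lcn2, Wfdc2 and Icam1, 4 of the 5 genes, and the first listed start was used. The 250 bases before the start are printed 5′ to 3′ along the gene, with matches to any of 5 searched motifs in capitals. Spp1 lies on the plus strand, and its window is chr5:104434861-104435110.
Spp1: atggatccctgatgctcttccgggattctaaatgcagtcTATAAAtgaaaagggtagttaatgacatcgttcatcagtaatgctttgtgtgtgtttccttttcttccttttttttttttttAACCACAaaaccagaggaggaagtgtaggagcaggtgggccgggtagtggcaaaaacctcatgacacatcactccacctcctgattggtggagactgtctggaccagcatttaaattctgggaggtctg
Lcn2 lies on the minus strand, and its window is chr2:32387740-32387989.
Lcn2: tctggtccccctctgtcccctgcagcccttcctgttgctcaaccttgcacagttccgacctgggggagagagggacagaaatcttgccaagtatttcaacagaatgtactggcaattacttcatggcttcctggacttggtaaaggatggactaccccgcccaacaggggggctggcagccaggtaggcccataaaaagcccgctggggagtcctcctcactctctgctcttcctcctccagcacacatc
Wfdc2 lies on the plus strand, and its window is chr2:164562465-164562714.
Wfdc2: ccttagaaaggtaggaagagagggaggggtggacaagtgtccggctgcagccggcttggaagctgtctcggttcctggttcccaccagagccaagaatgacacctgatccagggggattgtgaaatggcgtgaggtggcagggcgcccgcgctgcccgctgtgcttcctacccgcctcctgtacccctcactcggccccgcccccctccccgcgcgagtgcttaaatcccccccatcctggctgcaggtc
Icam1 lies on the plus strand, and its window is chr9:21015690-21015939.
Icam1: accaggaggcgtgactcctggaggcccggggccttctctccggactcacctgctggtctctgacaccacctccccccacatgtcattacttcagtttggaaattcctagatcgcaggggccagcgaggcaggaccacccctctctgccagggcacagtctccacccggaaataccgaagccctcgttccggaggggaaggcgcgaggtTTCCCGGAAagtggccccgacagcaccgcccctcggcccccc
The motifs, searched on both strands, were TATAAA (the TATA box), the NF-kB motif (GGGA, then any 4 bases, then CC), TGANTCA (AP-1), TTCNNNGAA (STAT) and AACCACA (RUNX), and no 2 matches overlapped. Spp1 held a TATAAA, 211 to 206 bases before the start, and an AACCACA, 129 to 123 bases before it. Icam1 held a TTCNNNGAA, 42 to 34 bases before the start. No match was found in the windows of Lcn2 and Wfdc2, which says only that these letters are not there. Of 32851 promoter windows of the same length, 12.4% held TATAAA, 17.6% the NF-kB motif, 6.75% TGANTCA, 7.02% TTCNNNGAA and 4.4% AACCACA. These matches are descriptions of letters, and no measurement here bears on binding.

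Libraries held 3051 to 4439 cells and 4819988 to 7635509 counts, with medians of 1073 to 1539.5 counts per cell, and both treatments overlapped in each. Counts were summed per library and class, and the smallest sum held 12 cells. Of 21958 distinct cell labels, 196 occurred in more than 1 library. Leading genes matched the names of the thick ascending limb (TAL, led by Slc12a1), distal convoluted tubule (DCT, led by Trpm6) and connecting tubule (CNT, with Trpv5 and S100g among the first 3). They did not match OMCD principal, which led with Rhcg and Aqp6, known from type A intercalated cells. That class carried markers of both kinds. Principal cell markers (4 genes, none at 0) were at 49482 to 55555 CPM in vehicle and 47371 to 53271 in furosemide libraries. Type A intercalated markers (3 genes, none at 0) were at 71712 to 100998 and 70319 to 78323 CPM. It is therefore not read as principal cells alone below. The class called mystery cells by the authors held 107 cells led by Wnt4, Wfs1 and Shh and carried principal cell markers, and it was given no other name. Libraries that stood apart from the rest of their group for a member included furosemide library 4 in TAL, for Clu, and in DCT, for Lcn2. Vehicle library 5 stood apart in Podocytes/Glom, for Spp1. Others were vehicle library 1 in mystery cells, with 1038 CPM of Spp1 against 24763 and 16836, and vehicle library 3 in Proximal s1/s2, with 63.4 CPM of Lcn2 against 7.59 and 6.26.

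Each gene had its own map over the nephron. Levels are in CPM (the gene's count within all panel counts of a class, scaled to a common total and by edgeR's TMM factors), as the mean over the 3 vehicle libraries unless stated, and they are compared between classes, not between genes. The classes were built from the same counts, so this order is a description without a test.

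**Figure D1:**
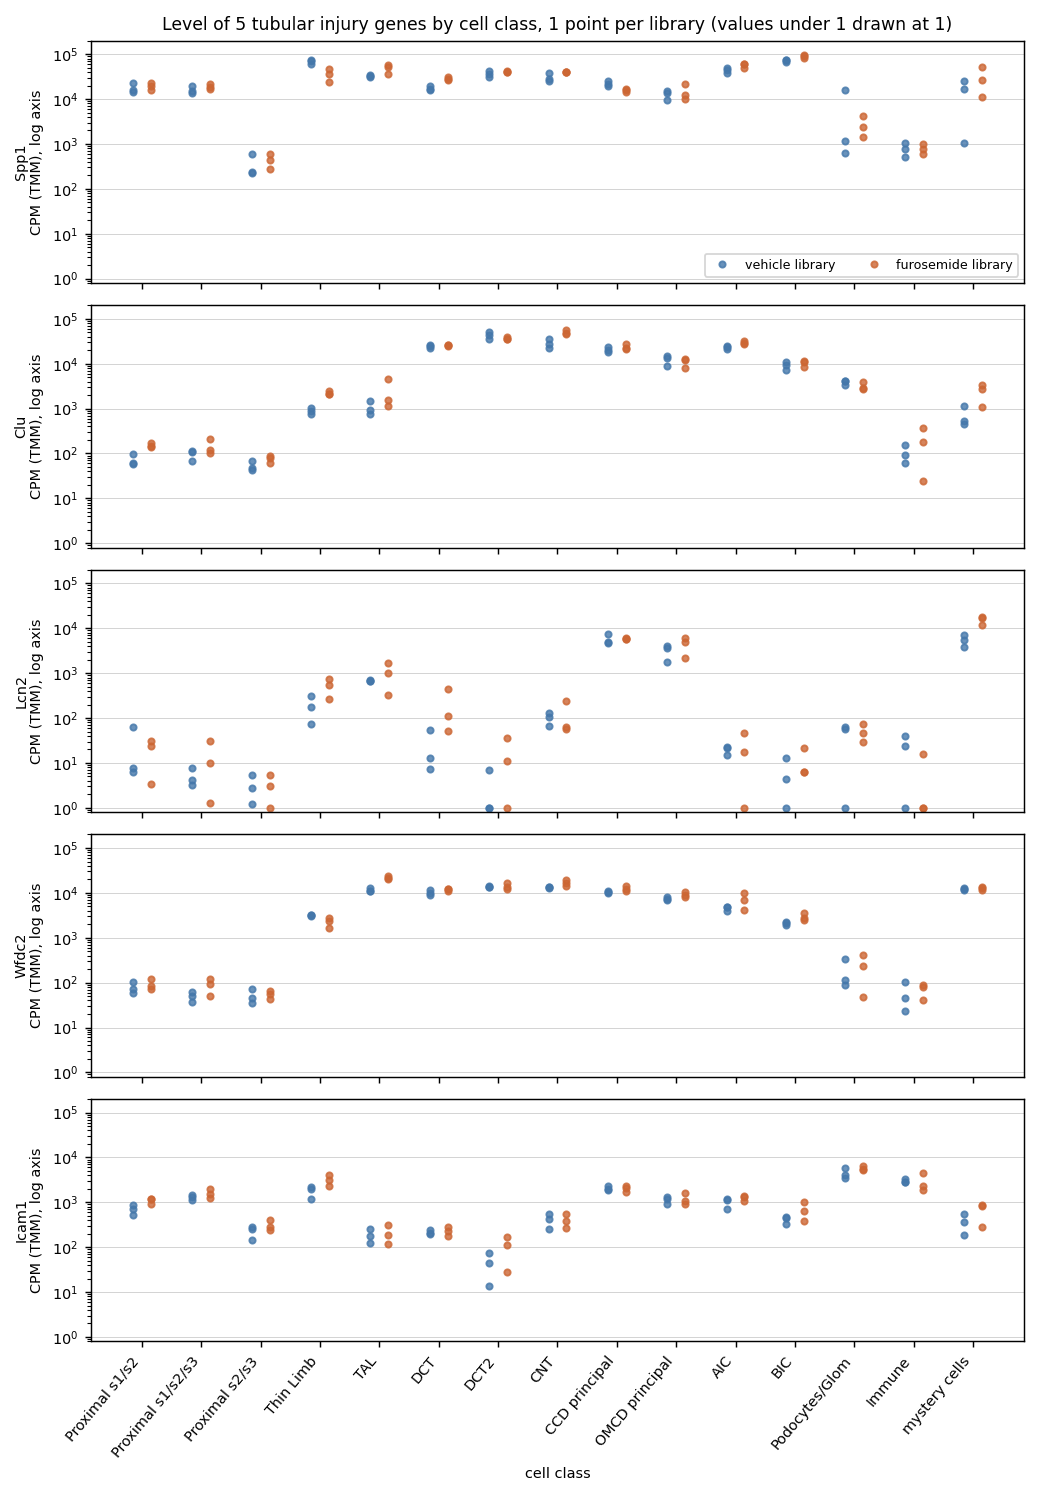
Level of each gene in the 15 cell classes, 1 panel per gene, with CPM (TMM-scaled) on a log axis and 1 point per library, vehicle in blue and furosemide in orange. Spp1 is spread over most tubule classes, Clu and Wfdc2 fall by orders of magnitude from the distal nephron to the proximal classes, Lcn2 is high in collecting duct classes and mystery cells, and Icam1 is highest in Podocytes/Glom.

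Spp1, osteopontin, was highest in type B intercalated cells (BIC) at 73252 ± 4204 CPM (SD, n = 3), then in Thin Limb at 67543 ± 6742 and in type A intercalated cells (AIC) at 44117 ± 5278. DCT2 stood at 37184 ± 5740 CPM, TAL at 33004 ± 1638 and CNT at 30668 ± 6114, and these did not differ beyond their spread. Proximal s1/s2 held 17804 ± 4429 CPM, but Proximal s2/s3 only 350.9 ± 213.5, below the 786.3 ± 259.4 of Immune cells. In Podocytes/Glom, vehicle library 5 stood at 15580 CPM against 639.6 and 1149 in libraries 1 and 3. Its 3 highest cells held 795 of its 1211 Spp1 counts, and without its highest cell its plain CPM, not scaled by TMM, went from 15181 to 11733. Without the 3 highest cells of each library it was still the highest, at 5837 against 291.5 and 168.4 plain CPM in vehicle libraries 1 and 3.

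Clu, clusterin, had its highest levels in DCT2 (42625 ± 6994 CPM) and CNT (28643 ± 6003), followed by DCT (24876 ± 1985), AIC (23095 ± 2181) and CCD principal (20650 ± 2752). It dropped to 1046 ± 361.2 CPM in TAL and 892.3 ± 143.2 in Thin Limb. The 3 proximal classes held 52.4 to 97.7 CPM, near the 101.2 ± 45.8 of Immune cells. Over all 6 libraries, CCD principal lay entirely above OMCD principal and BIC entirely above Podocytes/Glom, while the levels of DCT, AIC and CCD principal overlapped.

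Lcn2 was a transcript of few classes. CCD principal held 5774 ± 1522 CPM, mystery cells 5569 ± 1635, OMCD principal 3141 ± 1245 and TAL 688.8 ± 27.8. OMCD principal lay above TAL in 6 of 6 libraries with no overlap. Elsewhere it reached at most 186.1 ± 117.8 CPM, in Thin Limb. In 7 classes it was too low to be tested: Proximal s2/s3, AIC, Podocytes/Glom, BIC, Immune, Proximal s1/s2/s3 and DCT2. The 3 proximal classes, which take lipocalin 2 up from the filtrate, together held 63 Lcn2 counts in vehicle and 64 in furosemide libraries.

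Wfdc2 was spread evenly over the distal nephron, at 13552 ± 541.2 CPM in DCT2, 13365 ± 484 in CNT, 12307 ± 438.6 in mystery cells, 11566 ± 1046 in TAL, 10441 ± 328.1 in CCD principal and 10161 ± 1538 in DCT. It was 4527 ± 473.9 CPM in AIC, 3162 ± 106.1 in Thin Limb and 2112 ± 170.1 in BIC. The proximal classes held 50.3 to 77.6 CPM. AIC lay above Thin Limb, and BIC above Podocytes/Glom, without overlap in any of the 6 libraries.

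Icam1 had its highest levels in 2 classes outside the tubule. Podocytes/Glom held 4438 ± 1164 CPM and Immune cells 2978 ± 290.8. Among tubule classes CCD principal stood at 2029 ± 225.2, Thin Limb at 1791 ± 550.5 and Proximal s1/s2/s3 at 1310 ± 173.6. It was lowest in TAL (186.3 ± 69.4 CPM) and DCT2 (43.2 ± 29.4). Most of its counts still lay in the larger tubule classes: in vehicle libraries 27.2% ± 3.17 of them were in Proximal s1/s2/s3 and 14.8% ± 4.56 in CCD principal, against 7.88% ± 3.47 in Podocytes/Glom and 6.52% ± 2.92 in Immune cells. No 2 neighbours in its order of classes were free of overlap over the 6 libraries.

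The genes of the panel whose class pattern was most like each member were found by Pearson's r of log2(CPM + 1) over the 15 classes, with vehicle means, among the 391 genes that reached 100 CPM in a class. They were Pfkm (r = 0.83), Hdac2 (0.81) and Pkd2 (0.81) for Spp1, and Slc4a3 (0.95), Nr3c2 (0.93) and Atp4a (0.91) for Clu. For Lcn2 they were Wnt7b (0.89), Wnt9b (0.87) and Hist1h1c (0.83), and for Wfdc2 Stk39 (0.94), Cdh1 (0.89) and Tmem213 (0.88). For Icam1 they were Itga5 (0.85), Tnfsf12 (0.83) and Trp53 (0.82). Among the members, Clu and Wfdc2 were most alike (r = 0.80), then Spp1 and Wfdc2 (0.66), and Icam1 and Wfdc2 least (-0.41). The classes share libraries and one panel, so r is given as a description.

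With furosemide, single members were higher in single classes. Clu rose in CNT and Thin Limb, Wfdc2 in TAL, Spp1 in DCT and Lcn2 in mystery cells, by 1.61-fold to 2.84-fold. Icam1 passed in no class. With edgeR's quasi-likelihood test and Benjamini-Hochberg adjustment over all genes tested in a class, 5 of 67 tested pairs of member and class were called, each higher with furosemide and none lower, and limma-voom made the same 5 calls (1.53% of all pairs called, 0.779% higher and 0.752% lower). Over all genes, 54 of 3724 such pairs were called in either direction (1.45%), 28 of them higher (0.752%) and 26 lower (0.698%). At an unadjusted p under 0.05 stood 18 of the 67 with edgeR, 16 higher and 2 lower, against 11.9% of all pairs, 6.10% higher and 5.83% lower. DESeq2 called 7 of the 73 members' pairs to which it gave an adjusted p: the same 5, Lcn2 in DCT (higher) and Spp1 in CCD principal (lower). It called 2.68% of all such pairs, 1.33% higher and 1.35% lower. The median log2 fold change was 0.32 over the members' pairs and 0.01 over all pairs, and 55 of the 67 were above 0, against 51.1% of all pairs. Pairs of a member in several classes come from the same libraries and are not independent. The members were chosen with earlier results of these data known, so their contrast with all pairs is a description. In the 10 classes with no called member, the share of genes called was 1.42% in DCT2 (each higher), 0.408% in BIC (each lower), 0.418% in Podocytes/Glom (each higher) and 0 in the rest.

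**Figure D2:**
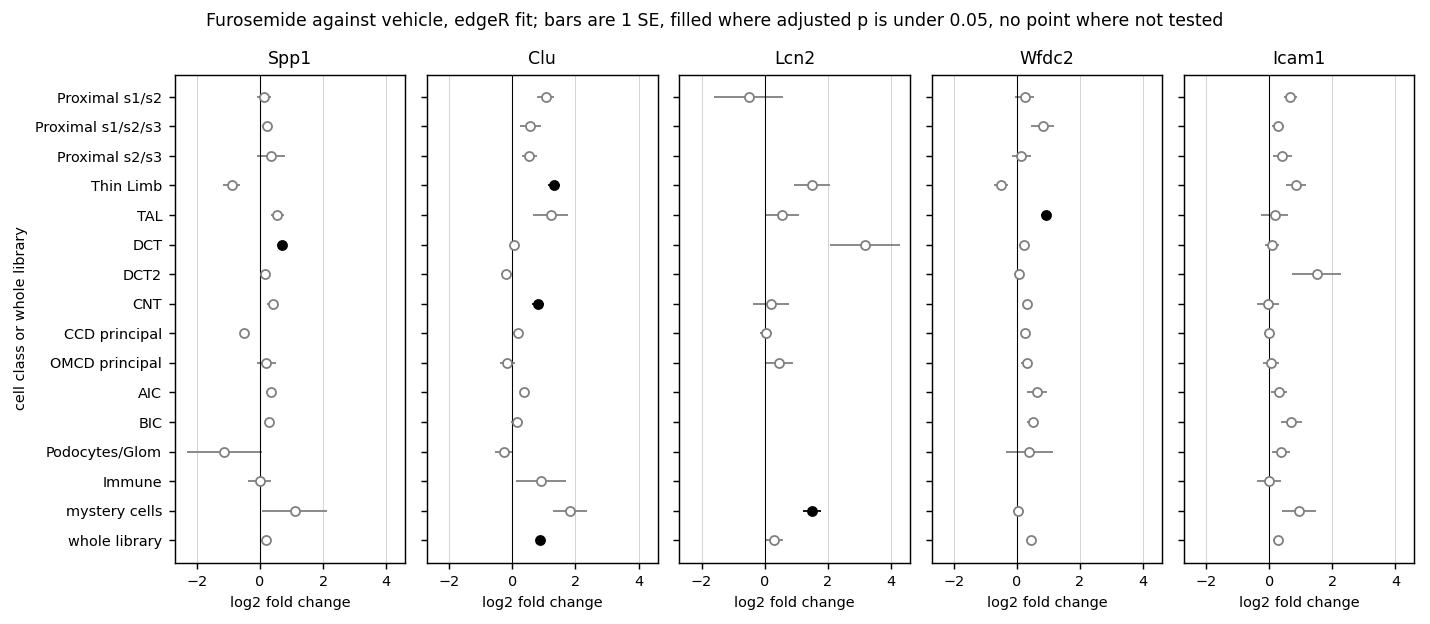
Log2 fold change, furosemide against vehicle, for each gene (panels) in each class and in whole libraries (rows). Bars are 1 SE, filled points have an adjusted p under 0.05, and no point is drawn where a gene was not tested. The 5 filled points in classes are spread over Spp1, Clu, Lcn2 and Wfdc2, all to the right of 0, and Icam1 has none.

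**Figure D3:**
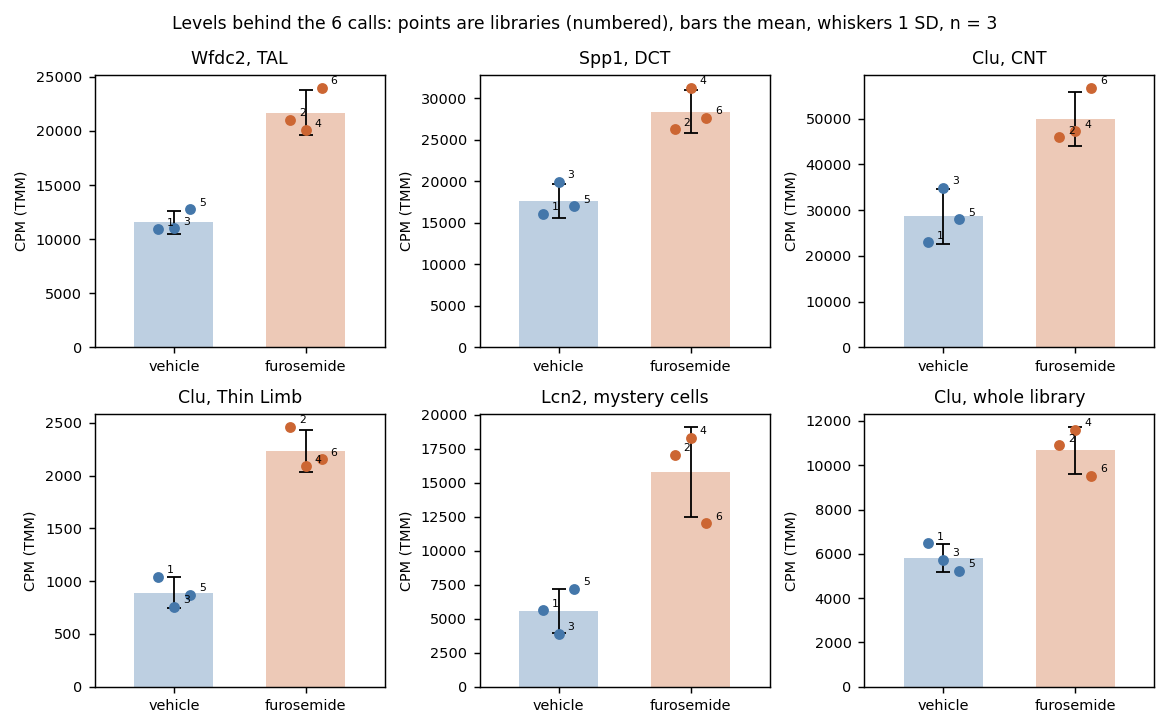
CPM (TMM-scaled) behind each of the 6 calls, with 1 numbered point per library, bars for the mean and whiskers for 1 SD (n = 3). In all 6 panels the furosemide libraries lie above the vehicle libraries without overlap.

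Wfdc2 in TAL, the segment that furosemide acts on, stood at 10908, 11018 and 12773 CPM in vehicle libraries 1, 3 and 5 and at 20998, 20063 and 24004 CPM in furosemide libraries 2, 4 and 6. Every furosemide library lay well above every vehicle library, and the spread within each treatment was small. The fold was 1.88 (log2 0.91 ± 0.15 SE, edgeR adjusted p = 0.0265), where 4.73% of the 317 genes tested in TAL were called and 1.58% were called higher, 3.15% lower. The shift ran through the whole class: the median TAL cell held 13, 17 and 15 Wfdc2 counts in vehicle and 28, 31.5 and 31 in furosemide libraries. Cells with at least 1 count made up 93.3%, 94.8% and 97.0% of TAL cells in vehicle and 99.4%, 100% and 99.8% in furosemide libraries, against 1.67% to 7.46% of Immune cells, whose median depth was 817 counts against 1502 in TAL. The highest cell of each library held 0.649% to 1.22% of the counts. In the same cells the summed markers of CNT (6 genes, none at 0), a class that holds Wfdc2, ranged over 1119 to 1139 CPM in vehicle and 1219 to 1515 in furosemide libraries, and their part in the result was not tested. Thin limb markers (4 genes, none at 0) were lower, at 9905 to 11155 against 6218 to 6927 CPM, as were stroma markers (4 genes, Col3a1 at 0), at 35.3 to 239.5 against 21.5 to 33.9 CPM. Markers of DCT (5 genes, Pvalb at 0) overlapped, at 31274 to 35283 against 27380 to 38625 CPM. The call was lost with equal cell numbers (log2 0.89, edgeR adjusted p = 0.0524) and without any 1 of vehicle libraries 1 and 3 and furosemide libraries 2 and 4 (log2 0.84 to 0.98, largest adjusted p 0.122).

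The Wfdc2 response differed between TAL and its neighbour downstream. In DCT, Wfdc2 stood at 9889, 8777 and 11818 CPM in vehicle and 10936, 12436 and 11937 CPM in furosemide libraries, which overlapped (log2 0.21 ± 0.15, edgeR adjusted p = 0.688). Tested as an interaction with the library as a block, the effect in DCT was lower than in TAL by 0.75 ± 0.16 (SE) on the log2 scale (edgeR adjusted p = 0.0161), where 9.65% of 311 genes differed between these classes. It was not called with limma on the differences (adjusted p = 0.0525) or without vehicle library 1 (-0.67, edgeR adjusted p = 0.121) or 5 (-0.76, edgeR adjusted p = 0.0552). Among the 6 planned pairs of summed proximal classes, TAL, DCT and CNT, this was the 1 difference called of 30 tested for the members. Over all genes the share called was 9.65% in this pair. In the other planned pairs it was 1.38% (TAL minus proximal), 0.283% (DCT minus proximal), 0 (CNT minus proximal), 0.311% (CNT minus TAL) and 0.997% (CNT minus DCT). CNT lay between, with 13737, 13539 and 12818 CPM in vehicle and 16929, 19600 and 13898 in furosemide libraries (log2 0.33 ± 0.15, edgeR adjusted p = 0.251), the furosemide libraries above but not called, and its difference from TAL was not called (-0.49 ± 0.27, adjusted p = 0.499).

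Elsewhere Wfdc2 had log2 fold changes from -0.50 to 0.81, none called by edgeR. CCD principal held 10461, 10103 and 10758 CPM in vehicle and 10899, 14162 and 12095 in furosemide libraries (log2 0.25, edgeR adjusted p = 0.432). BIC held 1918, 2183 and 2235 against 2818, 2498 and 3621 CPM (log2 0.50, edgeR adjusted p = 0.265), and Thin Limb 3138, 3070 and 3278 against 2316, 2731 and 1653 CPM (log2 -0.50, edgeR adjusted p = 0.376). Libraries did not overlap in these 3 classes, Thin Limb being the one with the furosemide libraries below. Without overlap between treatments were 18 of the members' 67 pairs, 15 higher and 3 lower, against 17.1% of all pairs, 8.43% higher and 8.62% lower.

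Spp1 in DCT, the next segment along, stood at 16072, 19926 and 16974 CPM in vehicle and at 26246, 31296 and 27657 CPM in furosemide libraries. Furosemide library 4 was the highest, and the treatments did not overlap. The fold was 1.61 (log2 0.69 ± 0.14, edgeR adjusted p = 0.0252), in a class where 4.73% of 275 genes were called and 2.91% were called higher, 1.82% lower. In DCT the median cell held 18, 25 and 16 Spp1 counts in vehicle and 24, 27 and 26 in furosemide libraries. Per cell and relative to its own total, the median was 12903, 15786 and 13681 CPM against 17122, 20575 and 18487 CPM, again without overlap. A single cell held 1147 of the 12559 Spp1 counts of library 2, and another 1307 of the 23416 counts of library 4. No list of tubule, immune or stroma markers was free of overlap between treatments in DCT. Without the 7 DCT cells that held at least 10 Lcn2 counts, a limit chosen after the values were seen, the log2 fold change was 0.57 (edgeR adjusted p = 0.0531). The call was also lost with library size alone (0.60, 0.0504), without the cells in the top 5% of totals (0.60, 0.0661), in the authors' second clustering (0.56, 0.0556) and without 5 of the 6 libraries in turn, all but vehicle library 3 (0.61 to 0.74, largest edgeR adjusted p 0.146).

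The direction of Spp1 was not the same along the nephron. In TAL it stood at 34349, 33484 and 31180 CPM in vehicle and 35857, 57864 and 50967 in furosemide libraries, not called (log2 0.55 ± 0.20, edgeR adjusted p = 0.207), and without the TMM scaling furosemide library 2 (34364 CPM) fell below vehicle library 1 (37131). CNT held 25943, 37573 and 28488 CPM against 41072, 39995 and 39990 (log2 0.40 ± 0.17, edgeR adjusted p = 0.209), and BIC 68421, 75258 and 76078 against 90228, 82444 and 95361 (0.29 ± 0.09, 0.183). In both, the furosemide libraries lay above without passing the test.

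In 2 classes the furosemide libraries lay below for Spp1. Thin Limb held 69153, 73333 and 60142 CPM in vehicle and 23548, 37165 and 48022 CPM in furosemide libraries (log2 -0.90 ± 0.27, edgeR adjusted p = 0.163). CCD principal held 19873, 21604 and 25384 against 16816, 16065 and 14131 CPM (log2 -0.51 ± 0.14, edgeR adjusted p = 0.11), a difference that DESeq2 called (-0.55, adjusted p = 0.00844). Markers of other cells moved in that class: those of type A intercalated cells (3 genes) were at 2214 to 3154 CPM in vehicle and 826.3 to 2024 in furosemide libraries, and those of type B (3 genes) at 1503 to 2353 against 588.9 to 1401. Both AIC and BIC are classes with much Spp1. Principal cell markers (4 genes) were also lower, at 89236 to 100403 against 80264 to 84564 CPM, and CNT markers (6 genes) higher, at 24110 to 28124 against 37939 to 42356. None of these markers was at 0, and their part in the result was not tested. The share of Thin Limb cells with an Spp1 count did not fall, at 84.7%, 82.1% and 80.6% in vehicle and 88.9%, 90.4% and 82.0% in furosemide libraries. Thin limb markers (4 genes, none at 0) overlapped in Thin Limb, at 81760 to 87970 CPM in vehicle and 37873 to 89336 in furosemide libraries. Proximal markers (7 genes, Fabp1 at 0) were higher, at 491.6 to 582.6 against 582.9 to 1119 CPM. DCT markers (5 genes, Pvalb at 0) were lower, at 2415 to 3045 against 1849 to 2314 CPM. Their part in the lower Spp1 was not tested. Tests of the difference, chosen after these values were seen (5 pairs of classes), found the effect in Thin Limb below that in DCT by 1.61 ± 0.29 on the log2 scale (difference -1.61, edgeR adjusted p = 0.0405, where 2.53% of 316 genes differed). That was lost with library size alone (-1.32, 0.0884), with limma on the differences (adjusted p = 0.0783) and without 5 of the 6 libraries in turn, all but furosemide library 6 (-1.76 to -1.41, largest edgeR adjusted p 0.135). For CCD principal against DCT the difference was -1.20 ± 0.20 (edgeR adjusted p = 0.0873), not called.

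Clu rose in CNT, a segment where it is already high. CNT held 22966, 34927 and 28037 CPM in vehicle and 45884, 47213 and 56796 CPM in furosemide libraries. Vehicle library 3 was the nearest to the furosemide libraries, and there was no overlap. The fold was 1.74 (log2 0.80 ± 0.19, edgeR adjusted p = 0.0413), in a class where 5.08% of 256 genes were called and 2.34% were called higher, 2.73% lower. The median CNT cell held 27, 49.5 and 34 Clu counts in vehicle and 78, 79 and 68 in furosemide libraries, and relative to its own total 16835, 28568 and 25485 against 36816, 42833 and 33096 CPM. Depth moved with the treatment in this class, at a median of 1436, 1798 and 1374 counts per cell against 1984, 1956 and 2041, and with every cell thinned to 500 counts the log2 fold change was 0.79 (edgeR adjusted p = 0.0491). Summed DCT markers (4 of 5 above 0, Pvalb at 0) in CNT cells ranged over 2429 to 4593 CPM in vehicle and 5161 to 5414 in furosemide libraries, and DCT is a class with much Clu. TAL markers (6 genes, none at 0) were lower, at 1192 to 1244 against 727.3 to 851.3 CPM, and so were proximal markers (7 genes, Gatm and Fabp1 at 0), at 177.7 to 257.4 against 153 to 168.4 CPM. Their part in the result was not tested. The call was lost with library size alone (0.64, 0.0756), with no filter on low counts (0.81, 0.0551) and without any 1 of the 6 libraries (0.66 to 0.97, largest edgeR adjusted p 0.182).

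Clu also rose in Thin Limb, from a level more than an order of magnitude lower. Thin Limb held 1044, 759.3 and 873.7 CPM in vehicle and 2462, 2089 and 2156 CPM in furosemide libraries. Every furosemide library lay far above every vehicle library. The fold was 2.5 (log2 1.32 ± 0.20, edgeR adjusted p = 0.024), where 1.88% of 266 genes were called and 0.752% were called higher, 1.13% lower. These are sums of 115 to 173 counts per vehicle library and 120 to 413 per furosemide library. Cells with a Clu count made up 37.9%, 41.1% and 43.5% in vehicle and 64.4%, 60.3% and 46.0% in furosemide libraries. In Immune cells, a class that should lack most tubule transcripts, 2.33% to 14.4% of cells had a Clu count, at a median depth of 817 counts against 1122 in Thin Limb. In furosemide library 6 a single cell held 37 of the 120 counts, and without the highest cell of each library plain CPM was 868.3, 608.3 and 753 against 2264, 2176 and 1593. Median depth in Thin Limb went the other way from CNT, 1230 counts per cell in vehicle and 1004 in furosemide, and with thinned cells the log2 fold change was 1.23 (edgeR adjusted p = 0.0289). Thin limb markers themselves (4 genes, none at 0) overlapped, at 81760 to 87970 against 37873 to 89336 CPM. Proximal markers (7 genes, Fabp1 at 0) ranged over 491.6 to 582.6 CPM in vehicle and 582.9 to 1119 in furosemide libraries, and Clu in the proximal classes was far below its level here. DCT markers (5 genes, Pvalb at 0) were lower, at 2415 to 3045 against 1849 to 2314 CPM. Their part in the result was not tested. The call was lost without vehicle library 1, 3 or 5 or furosemide library 4 (1.22 to 1.52, largest edgeR adjusted p 0.185).

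DCT and DCT2, also classes with much Clu, did not pass for it. DCT held 25284, 22718 and 26625 CPM in vehicle and 26258, 24780 and 26352 in furosemide libraries (log2 0.05 ± 0.13, edgeR adjusted p = 0.906). DCT2 held 49610, 42643 and 35621 against 36191, 40241 and 35431 CPM (log2 -0.19 ± 0.16, edgeR adjusted p = 0.677). The difference in effect between CNT and DCT was 0.93 ± 0.24 and was not called (edgeR adjusted p = 0.14). Between Thin Limb and DCT, a pair chosen after the values were seen, it was 1.30 ± 0.22 (edgeR adjusted p = 0.0387), lost with limma on the differences (0.0719) and without 5 of the 6 libraries in turn, all but vehicle library 1 (1.15 to 1.40, largest edgeR adjusted p 0.156).

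Lcn2 rose in mystery cells, the class with the fewest cells. Libraries 1, 3 and 5 held 5618, 3910 and 7179 CPM and libraries 2, 4 and 6 held 17062, 18278 and 12025 CPM. No furosemide library came near the vehicle range. The fold was 2.84 (log2 1.51 ± 0.29, edgeR adjusted p = 0.0443), where 2.29% of 131 genes were called, each of them higher. These sums came from 12 to 33 cells a library and few cells carried much of them: the highest cell held 123 of 356 counts in library 2, 222 of 983 in library 4 and 82 of 168 in library 6. Without the highest cell of each library plain CPM was 5298, 3674 and 5382 in vehicle and 13443, 14538 and 6701 in furosemide libraries. The median cell stood at 4800, 3929 and 5809 CPM against 9341, 10211 and 4274, which overlap through library 6. The share of cells with an Lcn2 count did not rise, at 85.7%, 100% and 91.7% against 85.7%, 87.9% and 76.9%. Principal cell markers (4 genes, none at 0) overlapped between treatments, at 86195 to 107240 against 86097 to 116090 CPM, while CNT markers (6 genes, none at 0) were at 1638 to 2246 against 3125 to 3694 CPM. Their part was not tested. The call was lost with equal cell numbers (1.38, 0.0503), library size alone (1.39, 0.0675), thinned cells (1.27, 0.0667) and without 5 of the 6 libraries in turn, all but furosemide library 6 (1.33 to 1.74, largest edgeR adjusted p 0.182).

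In CCD principal cells, which held 47.4% ± 0.788 of all Lcn2 counts in vehicle and 49.5% ± 5.81 in furosemide libraries, Lcn2 stood at 4758, 5039 and 7524 CPM in vehicle and 5789, 6102 and 5842 CPM in furosemide libraries (log2 0.04 ± 0.19, edgeR adjusted p = 0.964). The furosemide libraries sat inside the vehicle range. TAL held 720.3, 678.9 and 667.4 CPM against 1014, 1703 and 322.1 CPM (log2 0.56 ± 0.53, edgeR adjusted p = 0.642), so that the vehicle libraries were close together and the furosemide libraries lay on both sides of them. Cells with an Lcn2 count made up 27.9%, 30.9% and 26.3% of TAL cells in vehicle and 27.2%, 37.2% and 14.6% in furosemide libraries, against 0 to 1.80% of Immune cells.

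Icam1, the surface adhesion molecule, was tested in all 15 classes and passed in none by edgeR (2 at an unadjusted p under 0.05), DESeq2 or limma-voom. Of its 15 log2 fold changes 12 were above 0, and the lowest was -0.04. In Thin Limb it stood at 2184, 1162 and 2027 CPM in vehicle and 2299, 4142 and 3198 CPM in furosemide libraries, without overlap (log2 0.85 ± 0.32, edgeR adjusted p = 0.266), and with equal cell numbers it passed (1.45, 0.0364). In Proximal s1/s2 it stood at 702.9, 522.0 and 855.8 against 1168, 1206 and 934.9 CPM (log2 0.67 ± 0.21, edgeR adjusted p = 0.462), again without overlap. Podocytes/Glom, its class of highest level, held 3532, 4032 and 5751 against 5592, 6568 and 5170 CPM (log2 0.38 ± 0.28, edgeR adjusted p = 0.847), and Immune cells 2789, 2833 and 3313 against 2355, 4603 and 1874 CPM (log2 -0.01 ± 0.38, edgeR adjusted p = 0.994). Both overlapped.

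The proximal tubule, the segment in which most work on tubular injury is done, showed no call for any member by edgeR, DESeq2 or limma-voom. With its 3 classes summed, Clu stood at 74.7, 51.4 and 77.0 CPM in vehicle and 102.8, 129.0 and 87.4 CPM in furosemide libraries (log2 0.65 ± 0.22, edgeR adjusted p = 0.6). It was higher in each furosemide library, at a level near that of Immune cells, and background as its source was not tested. The other log2 fold changes there were -0.03 for Spp1, 0.05 for Lcn2, 0.40 for Wfdc2 and 0.26 for Icam1, with edgeR adjusted p from 0.726 to 0.985. In this sum 0.299% of 335 genes were called, so few genes of any kind passed.

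Shares of cells with at least 1 count were compared over libraries by a two-sided exact permutation test, which with 3 against 3 libraries cannot go below p = 0.1. Libraries did not overlap in 14 of the 67 pairs, each with more cells in furosemide libraries (exact permutation p = 0.1 each, the smallest possible). Over all pairs of gene and class 13.6% did not overlap, 6.93% higher and 6.66% lower. Clu accounted for 7 of the 14, in Proximal s1/s2, Proximal s1/s2/s3, Thin Limb, TAL, CCD principal, OMCD principal and mystery cells. In both proximal classes of these the share, 4.89% to 14.4% of cells, was no higher than the 2.33% to 14.4% of Immune cells. Whether it is background was not tested. In TAL, Clu was found in 43.8%, 36.1% and 43.1% of vehicle cells and in 51.1%, 56.5% and 47.5% of furosemide cells. Of the rest, 4 were pairs of Wfdc2 (TAL, DCT, OMCD principal and BIC), 2 of Icam1 (Proximal s1/s2 and OMCD principal) and 1 of Spp1 (OMCD principal). In OMCD principal, where 4 of the 14 lie, the median cell held 1542 counts in vehicle and 1878 in furosemide. With each cell thinned to 500 counts, which left out 735 vehicle and 548 furosemide cells, 14 pairs were without overlap and higher (15.3% of all pairs without overlap, 6.74% higher and 8.51% lower), but only 7 of them were among the first 14. Those 7 were Clu in Proximal s1/s2, Thin Limb, TAL, OMCD principal and mystery cells and Wfdc2 in TAL and OMCD principal. Shares of cells with at least 2 counts were without overlap in 13 pairs, each higher (13.1% of all pairs, 6.50% higher and 6.55% lower).

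Furosemide library 4 held a small set of TAL cells with very high Clu and Spp1. The limit of 50 Clu counts was set after the cells were seen, so the Clu values describe the choice. Of 4122 TAL cells 16 reached it: 13 of 696 in furosemide library 4 (1.87%, 95% exact binomial interval 0.998% to 3.17%), 1 of 356 in library 2, 0 of 446 in library 6, and 1 of 961, 0 of 823 and 1 of 840 in vehicle libraries 1, 3 and 5. These intervals cover counting error only. The limits of 25 and 100 counts gave 24 and 10 cells in library 4, and at most 10 and 1 in any other library. Those 13 cells held 68.1% of the Clu counts of TAL in their library.

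**Figure D4:**
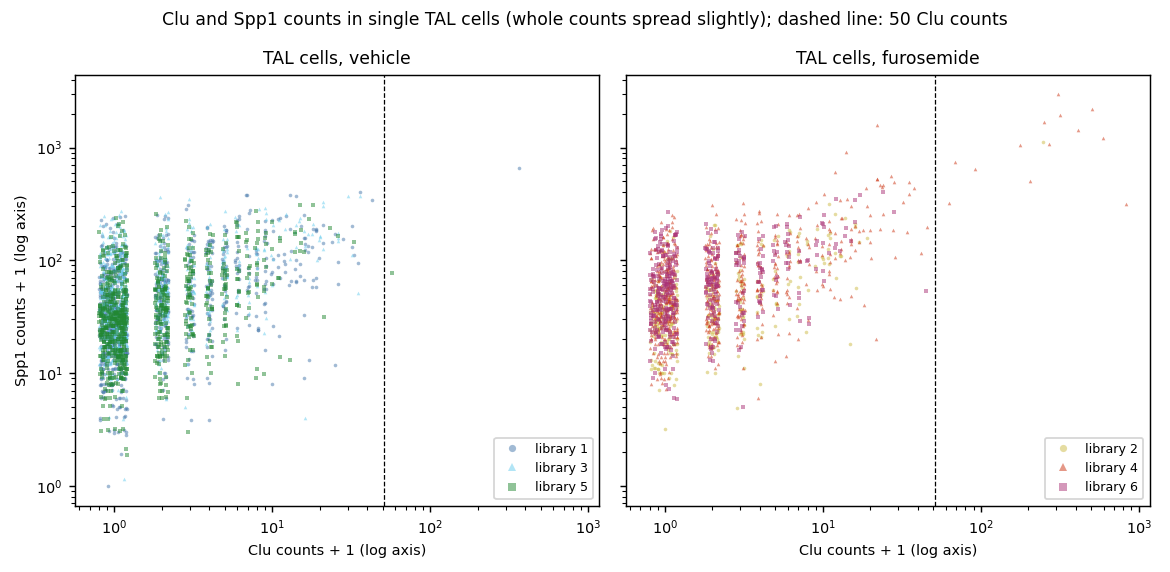
Clu counts (x axis) against Spp1 counts (y axis), both with 1 added and on log axes, in single TAL cells of vehicle (left) and furosemide libraries (right), 1 marker type per library. The dashed line marks 50 Clu counts, and 13 of the 16 cells to the right of it are red triangles of furosemide library 4, most of them also at the top in Spp1.

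In the 16 cells Spp1 took a median of 39.4% of all panel counts, against 2.90% in the other TAL cells and 3.45% in the other TAL cells of library 4. Lcn2 was counted in 13 of the 16, at a median of 48.5 counts, against 28.0% of the other TAL cells, and Icam1 in 13, against 13.1%. Other genes of the injury list are given for these cells as a description. C3, complement component 3, was counted in 8 of the 16 and in 0.219% of the others, and Timp1, an inhibitor of matrix proteases, in 6 and in 0.487%. With Spp1 and Clu taking much of the counts, shares of other genes must be lower, so genes of the working thick limb are given as shares of the counts outside the 5 members. Slc12a1 took a median of 2.68% of these, against 9.64% in the other TAL cells, and Egf 0.203% against 13.6%. Umod, which encodes the urinary protein uromodulin, took 28.9% of them against 22.8%, at a median of 320 against 314 counts. Of all panel counts Umod took 12.4% against 21.5%. The counts outside the 5 members include Slc12a1 and Egf, whose lower shares raise that of Umod. Wfdc2, the member called in TAL, took 1.43% of all counts, against 1.39% in the other TAL cells and 2.04% in those of library 4. Havcr1, the proximal injury marker KIM-1, was counted in 1 of the 16 and Vcam1 in 0. The cells were deeper than the rest, with a median total of 2644 counts against 1497. Immune markers (4 genes) were counted in 3 of the 16, with at most 2 counts, and proximal markers (7) in 7, at 0.0194% of counts against 0.0369% in the other cells. Principal cell markers (4) were counted in 2, one of them with 86 counts, and CNT markers (6) took 0.590% of counts against 0.116%. Their part was not tested. In the authors' second clustering 15 of the 16 were TAL and 1 was CNT sub3. These cells share a library and were chosen on Clu, so no test was made.

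The TAL sum of Clu rested mostly on such cells in furosemide library 4 alone, where they held 68.1% of the counts. They held 28.6% in library 2, 0 in library 6, and 15.1%, 0 and 4.57% in vehicle libraries 1, 3 and 5. TAL held 1451, 756.4 and 931.2 CPM of Clu in vehicle and 1564, 4582 and 1120 in furosemide libraries (log2 1.21 ± 0.56, edgeR adjusted p = 0.354), library 4 standing apart, and without library 4 the log2 fold change was 0.39 (edgeR adjusted p = 0.603). Without the high cells of TAL and DCT, plain CPM was 1333, 743.4 and 938.7 against 1076, 1574 and 999.3, and the log2 fold change was 0.39 (edgeR adjusted p = 0.461). In the same step Spp1 in TAL went to 36751, 32911 and 32875 against 32589, 49119 and 45483 CPM, and Wfdc2 stayed at 11786, 10829 and 13451 against 20159, 21118 and 21422. Lcn2 in TAL went from a plain CPM of 778.6, 667.2 and 703.5 in vehicle and 972.3, 1778 and 287.4 in furosemide libraries to 770.4, 667.2 and 705 against 848.5, 1129 and 287.4.

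DCT held a similar set for Lcn2. It stood at 13.2, 7.32 and 55.5 CPM in vehicle and 110.8, 445.1 and 50.9 in furosemide DCT sums, not called by edgeR (log2 3.18 ± 1.12, adjusted p = 0.273, and 1.83 without library 4) but called by DESeq2 (3.07, adjusted p = 0.00637) and, with edgeR, in the second clustering (2.01, 0.0241). These sums held 7, 3 and 16 Lcn2 counts in vehicle and 53, 333 and 20 in furosemide libraries. The gene thus passed edgeR's low-count filter through the furosemide libraries, where it is higher. A single cell held 222 of the 333 counts of library 4. The 7 DCT cells with at least 10 Lcn2 counts (4 in library 4 and 1 each in libraries 2, 5 and 6) held 85.6% of all Lcn2 counts of DCT, and 5 of them were placed in TAL by the second clustering. They had 43 to 258 counts of Slc12a3, the DCT cotransporter, and Slc12a1 in 2 of 7 with at most 2 counts. Spp1 took a median of 31.9% of their counts against 1.65% in the other DCT cells, and Clu 10.8% against 2.09%. Without them plain CPM of Lcn2 was 14.0, 7.08 and 11.3 in vehicle and 27.6, 39.0 and 18.5 in furosemide libraries.

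Summed over all cells of a library, 1 of the 5 members was called. Clu stood at 6480, 5735 and 5224 CPM in vehicle and 10907, 11599 and 9520 CPM in furosemide libraries, well apart (1.84-fold, log2 0.88 ± 0.14, edgeR adjusted p = 0.0247), where 4.46% of 426 genes were called and 1.88% were called higher, 2.58% lower. In such sums more cells of a class and more transcript per cell cannot be told apart without the class values, which are given next. CNT cells were 3.63% ± 0.495 of vehicle and 6.41% ± 1.49 of furosemide libraries. Clu counts per cell went from 9.40 ± 1.90 to 16.7 ± 3.66 (SD, n = 3). With the vehicle counts per cell of each class and the furosemide shares of classes the value was 13.2 ± 1.76, and with furosemide counts per cell and vehicle shares it was 12.0 ± 1.70, so either alone gave less than both. CNT cells held 21.4% ± 6.41 of all Clu counts in vehicle and 39.7% ± 1.12 in furosemide libraries. The call was lost without 5 of the 6 libraries in turn, all but furosemide library 6 (0.80 to 0.97, largest edgeR adjusted p 0.127).

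**Figure D5:**
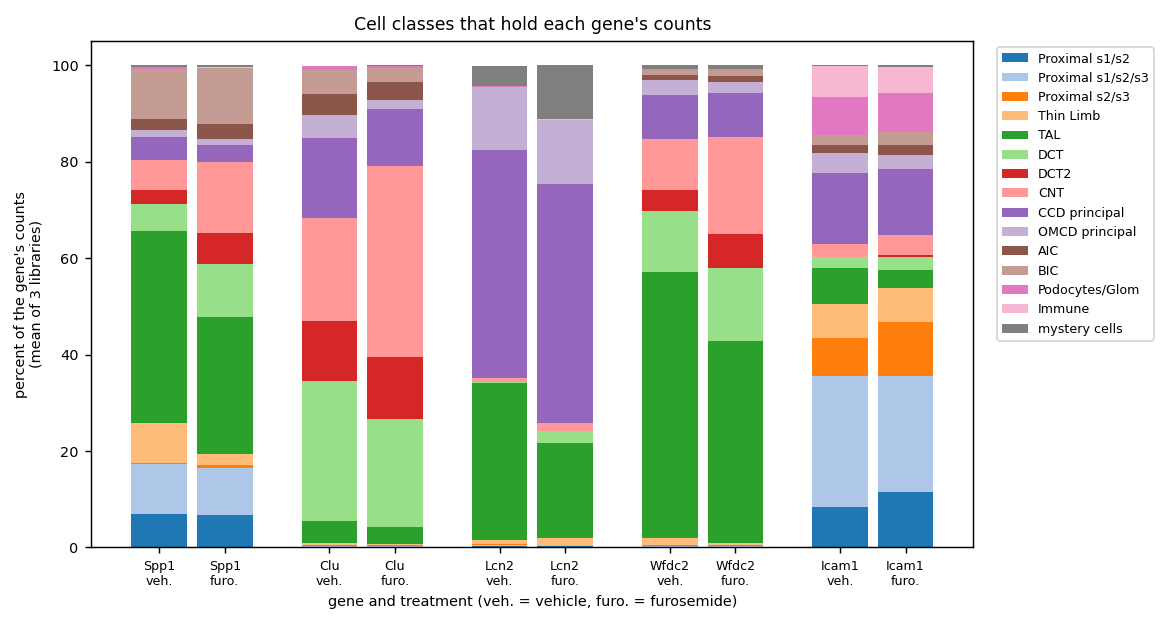
Percent of each gene's counts that lies in each cell class, as the mean of 3 vehicle (veh.) and 3 furosemide (furo.) libraries per gene. The CNT part of Clu grows from 21.4% to 39.7%, the TAL part of Wfdc2 shrinks from 55.2% to 41.9%, and the mystery cell part of Lcn2 grows from 4.26% to 11.2%.

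Wfdc2 in whole libraries stood at 5492, 5163 and 5538 CPM in vehicle and 6730, 8549 and 6583 in furosemide libraries (log2 0.43 ± 0.14, edgeR adjusted p = 0.182), without overlap, and DESeq2 called it (0.46, adjusted p = 0.012). The share of TAL cells was 23.7% ± 1.01 in vehicle and 13.3% ± 2.13 in furosemide libraries, while Wfdc2 per TAL cell was higher: with vehicle levels and furosemide shares the counts per cell would be 8.14 ± 1.17, with furosemide levels and vehicle shares 13.1 ± 1.03, and the measured values were 8.67 ± 0.998 and 11.4 ± 3.06. Spp1 had 34.5 ± 5.61 and 37.5 ± 6.28 counts per cell, Lcn2 0.884 ± 0.149 and 1.08 ± 0.567, and Icam1 1.04 ± 0.0223 and 1.24 ± 0.286. None of these 3 was called in whole libraries (edgeR, log2 0.18, 0.29 and 0.27, adjusted p = 0.556, 0.67 and 0.449).

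Few other injury genes of the panel passed. Of 52 names on a list of kidney injury genes, 29 were in the panel. In the 5 classes with a called member, 1 passed edgeR's test: Myc, a growth regulator, fell in TAL by 0.86 ± 0.17 on the log2 scale (edgeR adjusted p = 0.0426), 1 of 19 tested there. With edgeR none of 17 tested passed in DCT (2 at an unadjusted p under 0.05), none of 16 in CNT (1), none of 21 in Thin Limb (4) and none of 9 in mystery cells (2). Over all genes and 15 classes, edgeR called 1.45% of pairs, limma-voom 1.53% and DESeq2 2.68% (1.33% higher and 1.35% lower). On this list edgeR and limma-voom called 1 of 260 pairs, while DESeq2, which tested 397, called 2 higher and 7 lower. The higher ones were Havcr1, known as KIM-1, in Proximal s1/s2 and Hmox1, a heme-degrading enzyme, in DCT2. The lower ones were Atf3 in CNT, Ctgf, Plaur and Vim in CCD principal, Cyr61 and Myc in TAL, and S100a6 in DCT. The list's median log2 fold change ranged over the 15 classes from -0.25 in TAL to 0.39 in mystery cells, against -0.03 to 0.05 over all genes.

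Receptors of the members and regulators of inflammation were mostly outside the panel, with 7 of 27 listed names measured: the integrin genes Itgb5 and Itgax, and Nfkb2, Tnf, Il1b, Il6 and Stat3 of inflammatory signalling. None was called in any class by edgeR, DESeq2 or limma-voom. With edgeR 1 stood at an unadjusted p under 0.05 over the classes, Itgb5, part of an osteopontin receptor, in CNT (log2 0.45 ± 0.15, edgeR adjusted p = 0.146).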

How the data were processed

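Single cells were counted on a BD Rhapsody panel of 456 genes, so CPM is a share within chosen genes. Counts were used as deposited by the authors, per the file headers 1 whole number per gene and cell. The deposited tables are named as having doublets removed and cell numbers made equal between treatments, and no further doublet step was taken. Molecules cannot be told from reads in these counts, and the counting tool and the genome build are not given in the sources used here. Bowtie2 2.2.9 is named per the submitters' processing notes. Cell classes are the authors' deposited annotation, and their second clustering was an alternative.

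Counts were summed per library and class (at least 10 cells). Treatments were compared with edgeR 4.0.16 in R 4.3.3 (quasi-likelihood, TMM, low-count filter, 3 against 3 libraries, Benjamini-Hochberg over all genes of a class, threshold 0.05), checked on simulated data. Differences between classes were interactions with the library as block. Alternatives used DESeq2 1.42.0, limma 3.58.1, other scaling, no filter, equal cell numbers, cells thinned to 500 counts, no cells in the top 5% of totals, and each library left out. Tables were made in Python 3.11.15. Members and lists were chosen with earlier results of these data known, and the 5 added pairs of classes, the high-cell limits and the analysis without those cells after seeing the values. By the naming rule the text names the 5 members, the 3 genes most like each by class, and list genes that passed. Other genes named (DESeq2 calls of the lists, partners in the panel, genes shown in the high cells) were chosen after their values were seen, and leading genes and markers are named as checks of classes. No columns of other samples were present (0). Depth was 4819988 to 7635509 counts per library. Intervals cover counting error only. The values of 1 marker list are not reported here.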

Additional observations from a re-analysis of the deposited data

Results flagged for a closer look

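The furosemide effect differed between classes for 3 pairs of member and classes, by a test of the difference itself. Wfdc2 was one of the planned pairs: its log2 fold change in DCT minus that in TAL was -0.75 ± 0.16 (SE, edgeR adjusted p = 0.0161), where 9.65% of 311 genes differed. It was lost with limma on the differences (adjusted p = 0.0525) and without vehicle library 1 or 5 (edgeR adjusted p = 0.121 and 0.0552). The other 2 pairs were chosen after their values were seen. For Clu the effect in Thin Limb minus that in DCT was 1.30 ± 0.22 (edgeR adjusted p = 0.0387), and for Spp1 the same difference was -1.61 ± 0.29 (edgeR adjusted p = 0.0405). In that pair of classes 2.53% of 316 genes differed. Both the Clu and the Spp1 difference were lost with limma on the differences (adjusted p = 0.0719 and 0.0783) and without 5 of the 6 libraries in turn.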

How the results depend on the processing

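Of 1707 alternative values for single results, called or not, 1644 stayed on the same side of the threshold, 55 lost the call and 8 gained one. Only called results can lose a call, so the 55 are not to be set against 1707. Calls within classes were kept in 8 of 17 alternatives (Spp1 in DCT) to 13 of 17 (Clu in Thin Limb). Clu in whole libraries was kept in 7 of 12. Called differences between classes were kept in 1 of 8 (Spp1, Thin Limb minus DCT) to 5 of 8 (Wfdc2, DCT minus TAL). Among calls, 0 changed direction, and the sign of results near 0 that were not called is not covered by these counts. Calls within classes numbered 5. Library size alone gave 2, DESeq2 7, and leaving out 1 library 0 to 4. It was 0 without furosemide library 4 and 0 without vehicle library 1, and the 4 without furosemide library 6 include 1 that is not among the 5, Clu in mystery cells (edgeR adjusted p = 0.0449). In whole libraries DESeq2 called 2 members in place of 1, and leaving out 1 library gave 0 to 1. For the planned differences between classes, limma on the differences called 0 in place of 1, and leaving out 1 library gave 0 to 2. Members' pairs with shares of cells free of overlap numbered 14 with thinned cells and 13 at 2 or more counts, against 14. Over all pairs of gene and class these were 15.3%, 13.1% and 13.6%. No paired analysis was possible because the labels give no replicate number for the library numbers in the counts, so the planned fit with replicate numbers as a block was not run. Of the edgeR calls, Lcn2 in mystery cells (12 to 33 cells per library) and Clu in Thin Limb (115 to 413 counts per library) rest on the fewest cells and counts.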
